A study of Saccharomyces cerevisiae with 8 samples.

Results

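The 5.8S rRNA of the yeast *Saccharomyces cerevisiae* is described here nucleotide by nucleotide. Its members were all rows of the deposited table that name 5.8S, which gave 158 of the 5475 rRNA nucleotides in the table, 41 of them adenosines, 36 cytidines and 81 guanosines or uridines. The study probed purified 80S ribosomes with dimethyl sulfate (DMS) in order to find where drugs bind. DMS methylates the base-pairing edge of A and C where it is exposed, and the methylated base is read as a mismatch in the cDNA, so that the mutation rate is the percentage of reads with a mismatch at a nucleotide. There were 8 libraries, 1 per condition, all from purified ribosomes treated in vitro and none from living cells. One had no DMS and no addition, and the other 7 had 90 mM DMS for 8 min. Of these 7, one had no addition, one had dimethyl sulfoxide (DMSO), 2 had agelastatin A (AglA) at 0.5 or 1.0 mM, and 3 had cycloheximide (CHX) at 10, 50 or 1000 µM. AglA is an alkaloid of marine sponges, and CHX blocks translation elongation from the E site of the large subunit. The labels do not name the yeast strain, the ribosome preparation or the solvent of CHX. Read depth is unknown, so no rate has a counting interval, and with 1 library per condition no difference has a replicate check or a p-value.

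The 5.8S rRNA is cut from the same precursor transcript as the 18S and 25S rRNAs. In the ribosome it base-pairs with the 5′ part of 25S, and together they form the region that corresponds to the 5′ end of the bacterial large-subunit rRNA. It lies in the body of the large subunit, near the exit tunnel for the nascent peptide, and away from the peptidyl transferase centre and the E site.

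The sequence is printed because openness is read along it. The table's bases were placed on RDN58-1, the first annotated copy of the gene, by its length, and were not compared with a genome sequence. That copy is at chrXII:455414-455571 in build sacCer3 (R64), read from the minus strand. Nucleotide 1 is at the highest coordinate, and since the rDNA is repeated, the position stands for all copies. Capitals mark the 15 open nucleotides, the A and C with an average rate of 0.5% or more in the 7 DMS libraries. T in the table is written as U.
5.8S rRNA: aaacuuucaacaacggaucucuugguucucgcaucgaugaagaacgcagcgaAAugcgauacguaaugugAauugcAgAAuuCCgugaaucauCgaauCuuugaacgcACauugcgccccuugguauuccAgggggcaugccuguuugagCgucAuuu

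Open nucleotides were concentrated in the middle of the molecule. Of the 77 A and C, 15 were open (9 A and 6 C), 29 were intermediate, with a mean of at least 0.1% but under 0.5%, and 33 were closed, below 0.1%. The open share was 19.5%, against 20.3% of the A and C of all 4 rRNAs. In order of this share, 18S had 23.9%, 5.8S 19.5%, 25S 18.7% and 5S 13.3%. Nucleotides 1 to 52 held 29 A and C and 0 open ones, nucleotides 53 to 110 held 30 and 12 open ones, and nucleotides 111 to 158 held 18 and 3 open ones. These bounds were drawn after the values were seen.

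**Figure D1:**
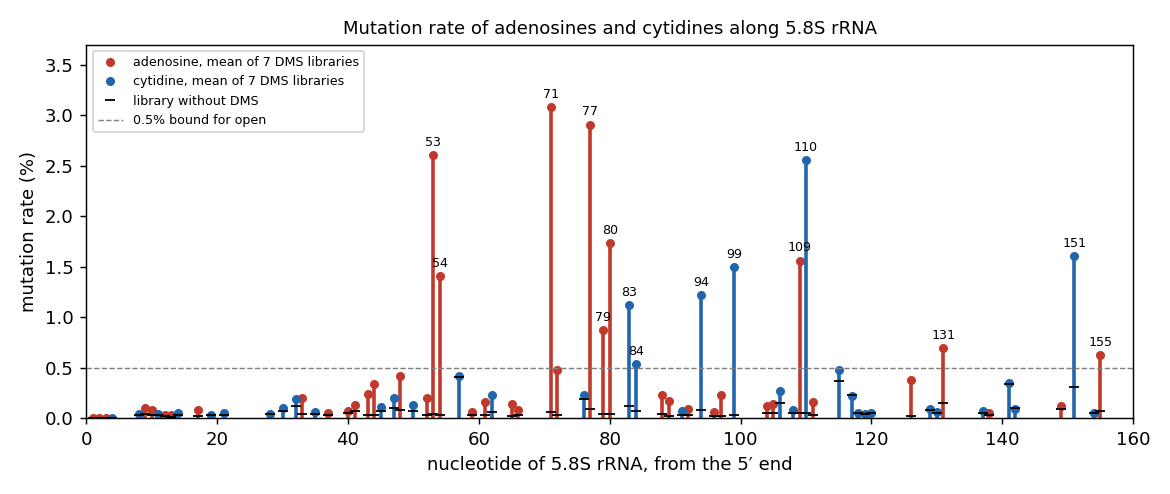
Mutation rate (%) of each adenosine (red) and cytidine (blue) by its number in 5.8S rRNA, as the mean of the 7 DMS libraries. Black dashes give the library without DMS and the grey line the 0.5% bound. The 15 numbered nucleotides are open, and 12 of them lie between 53 and 110.

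The highest rates were at 3 adenosines. A71 had a mean of 3.09% over the 7 DMS libraries, A77 had 2.91% and A53 had 2.60%, and C110, the highest cytidine, had 2.56%. The open nucleotides included 4 pairs of neighbours, namely A53 with A54, A79 with A80, C83 with C84, and A109 with C110. Neighbours were not equally open. A54 had 1.41%, which was 50.6% to 56.6% of the rate of A53 in the 7 libraries, and A72, next to A71, had 0.482%. Between nucleotides 77 and 84 all 5 A and C were open, from 0.534% at C84 to 2.91% at A77, with A79 at 0.873%, A80 at 1.74% and C83 at 1.12%. C94 had 1.22%, C99 1.49% and A109 1.56%. Past nucleotide 110 the open ones were A131 with 0.695%, C151 with 1.61% and A155 with 0.630%. The nucleotides just inside the bound were C84, A155 and A131, and those just outside were A72, C115 (0.473%) and C57 (0.418%).

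The closed and intermediate nucleotides formed long stretches. In nucleotides 1 to 52, 18 of 29 were closed, and the highest mean was 0.414% at A48. A43 and A44 had 0.245% and 0.338%. Between nucleotides 111 and 130, 0 of 9 A and C were open. C118, C119 and C120 were at 0.0473%, 0.0395% and 0.0559%, close to 0.0544%, 0.0388% and 0.0530% in the library without DMS. On the other side of the predicted hairpin that they belong to, C129 and C130 had 0.0897% and 0.0609%, and A126 in its loop had 0.378%. The lowest values were at the ends, where A1, A2, A3, U157 and U158 were listed at 0 in all 8 libraries. A value of 0 at an end does not tell a closed base from one that was not read, but A1, A2 and A3 are counted as closed.

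The predicted fold placed most of the A and C that pair with 25S among the closed ones. The minimum-energy structure of 5.8S together with nucleotides 1 to 650 of 25S, a prediction for RNA without proteins, had 44 of the 158 nucleotides paired with 25S, 68 paired within 5.8S and 46 unpaired. Of the 19 A and C paired with 25S, 14 were closed, 4 intermediate and 1 open. Of the 30 paired within 5.8S, 11 were closed, 12 intermediate and 7 open, and of the 28 unpaired, 8 were closed, 13 intermediate and 7 open. The 8 closed unpaired ones included A1, A2 and A3, listed at 0 in all libraries. The 14 closed ones paired with 25S included C4, next to A3, with a mean of 0.0016% and 0.0047% without DMS. The median mean rate was 0.0505% for those paired with 25S, 0.151% within 5.8S and 0.216% unpaired. The library without DMS had medians of 0.0371%, 0.0511% and 0.0339% for the same sets. The sets were not split by base, and cytidines were commoner among those paired with 25S than among those unpaired. In 5.8S 50% of C and 36.6% of A were closed. With the whole 25S, 15 of 22 A and C paired with 25S were closed. In that fold the 5′ part of 5.8S mostly paired with other parts of 25S, as A9 with U3389 in place of U414.

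**Figure D2:**
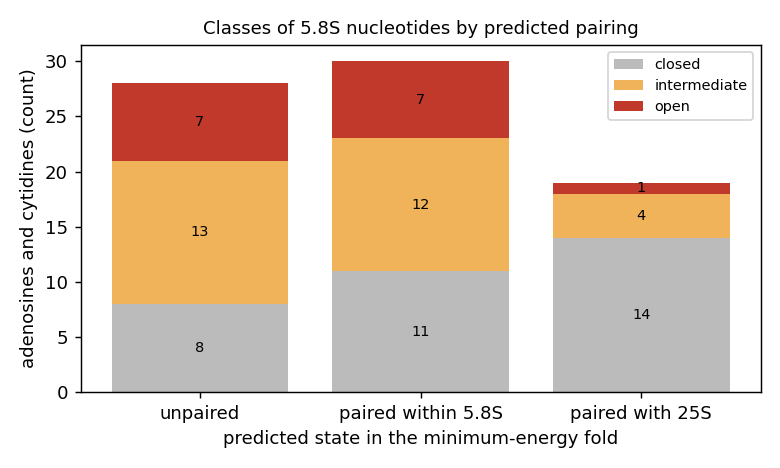
Number of adenosines and cytidines of 5.8S that were closed (grey), intermediate (orange) or open (red), by their state in the predicted fold with 25S. Of those paired with 25S, 14 of 19 were closed, whereas unpaired ones and ones paired within 5.8S each held 7 open nucleotides.

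The open nucleotides were not all among the bases predicted unpaired. A53, A54, A71, C84, C94, C99 and C151 were open and predicted unpaired. A77, A79, A80 and C83 were open and predicted to pair with U102, U100, U98 and G95, A109 and C110 with U69 and G68, and A131 with U122. A155 was open and predicted to pair with U4 of 25S. So 8 of 15 open nucleotides lay in predicted pairs. Of these, 2, C83 and A155, were next to an unpaired base in the sequence. U100 and U98, the partners of A79 and A80, lie on either side of the unpaired C99. With 5.8S folded alone 8 of the 15 open nucleotides were unpaired, and with the whole 25S 7 were.

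The 3′ end of 5.8S pairs with the 5′ end of 25S, and the stretch is shown because C151 and A155 lie in it. Capitals mark the predicted pairs. The 25S stretch is at chrXII:455162-455178 in RDN25-1 and the 5.8S stretch at chrXII:455417-455433 in RDN58-1, both on the minus strand.
5.8S nucleotides 139 to 155: UGCCUGUUUGAGcGUCA
25S nucleotides 4 to 20: UGACCUCAAAuCAGGUA
C151 is the 1 base of the 5.8S stretch without a predicted partner, and it had a mean of 1.61%. A155 is the last base of the stretch, with U4 of 25S as its predicted partner, 3 nucleotides from the 3′ end of 5.8S. Its neighbours C154 and U156 had means of 0.0505% and 0.0119%. U4 of 25S was listed at 0 in all 8 libraries.

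Every open nucleotide had a higher rate with DMS than without. The ratio of the rate with DMS and no addition to that without DMS had a median of 38.1 over the 15 and ran from 5.0 at A131 to 65.1 at A53. It was at least 10 at 11 of them. These nucleotides were chosen by their rate with DMS, so the ratio is a description. With 0.1 percentage points added to each rate, 28 of 77 A and C were at least 2-fold higher with DMS, which were all 15 open and 13 of the 29 intermediate ones. The background over the A and C of all rRNAs was 36.1%. By base, 21 of 41 A passed (background 50.7%) and 7 of 36 C (background 16.3%). Of the 81 G and U, 3 passed (background 7.64%), and 2 of the 81 (2.47%) did so in all 7 DMS libraries (background 4.79%). By the same rule, 0 of the 158 nucleotides were at least 2-fold lower with DMS.

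Without DMS none of the 158 nucleotides of 5.8S reached 0.5%, against 29 of 5475 in the table. At 0.25% or more there were 4 in 5.8S (2.53%) and 104 in the table (1.90%). All 4 were cytidines, 11.1% of the 36 in 5.8S, against 4.28% of the 1076 in all rRNAs. The median was 0.0339% over A and 0.0570% over C. The 4 highest, C57 at 0.406%, C115 at 0.364%, C141 at 0.335% and C151 at 0.310%, are all cytidines that follow a guanosine. In 5.8S the 11 such cytidines had a median of 0.194% without DMS, and the 7, 6 and 12 that follow A, C and U had 0.0491%, 0.0537% and 0.0384%. Over all rRNAs the same medians were 0.0935% after G, and 0.0622%, 0.0482% and 0.0507% after A, C and U.

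In 3 of these 4 cytidines the rates in both DMS libraries without drug were within 1.5-fold of those without DMS. C57 had 0.444% with DMS and no addition and 0.391% with DMSO, C141 had 0.344% and 0.306%, and C115 had 0.516% and 0.411%. C151 was at 1.81% and 1.79%. U73, known as the pseudouridine of yeast 5.8S, had 0.0520% without DMS and 0.0571% to 0.0770% in the DMS libraries.

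The open nucleotides varied little among the DMS libraries. The highest of the 7 rates was a median of 1.37 times the lowest over the 15, against 1.37 over the 514 A and C of all rRNAs that passed the same 0.5% bound. C83 varied least, with rates from 1.01% to 1.21%, and A155 most, from 0.450% to 0.875%, a ratio of 1.94. Among the 514, 12 had a ratio at least as large as that of A155. The median rate of the 15 was 0.0638% without DMS. Among the DMS libraries it was 1.58% for no addition, 1.6% for DMSO, 1.53% for 0.5 mM AglA and 1.5% for 1.0 mM AglA, and CHX at 10, 50 and 1000 µM gave 1.19%, 1.38% and 1.32%. In 10 of the 15 the lowest rate of the 7 was that with 10 µM CHX, as it was in 66.9% of the 514.

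**Figure D3:**
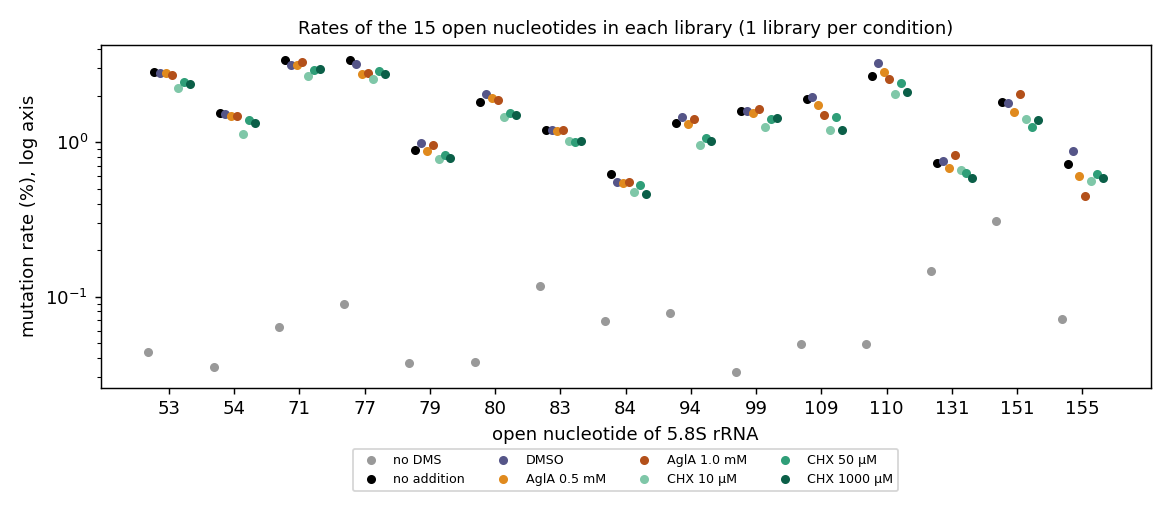
Mutation rate (%, log axis) of each of the 15 open nucleotides in the 8 libraries, 1 point per library, with nucleotides named by their number in 5.8S. The library without DMS lies below the others at each nucleotide, and the 7 DMS libraries spread most at nucleotide 155, from 0.450% to 0.875%.

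Libraries were compared at these 15 nucleotides as log2 ratios of the rates, after 0.1 percentage points were added to each rate and each library's median over the 514 was subtracted. For a call, a nucleotide had to differ at least 2-fold in one direction from the DMSO library and from the no-addition library alike. The comparisons of the drugs share these controls. In 5.8S 0 of 15 nucleotides were called in any of the 5 drug libraries, where the background was 0.195% in each, 1 of 514. With a 1.5-fold rule 0 of 15 were called too, with a background of 0.195%, and of 0.389% with 50 µM CHX. Without the bound on the mean rate, the library medians were taken over all 2529 A and C. In that run 0 of the 77 A and C of 5.8S passed the 2-fold rule, with a background of 0.0395% in each drug library. With 0.1 percentage points added, a control rate below 0.1% left no room for a 2-fold lower value before centring. Between DMSO and no addition 0 of the 77 passed as well (background 0.0791%).

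At the 15 open nucleotides of 5.8S the DMSO and the no-addition library differed by at most 0.34 on the log2 scale. The log2 ratio of DMSO to no addition had a median of 0.07 and a standard deviation of 0.12, against 0.05 and 0.19 over the 514. None of the 15 differed 2-fold (background 0.389%). The highest ratios were at C110 (0.34), A155 (0.32) and A80 (0.22), and the lowest at C84 (-0.09), A77 (-0.03) and A71 (-0.02). The rate of C110 was 2.67% for no addition and 3.26% for DMSO, and that of A155 was 0.717% and 0.875%. Over the 514, 20 nucleotides had a ratio at least as high as C110 and 26 one at least as high as A155.

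With AglA the largest difference from DMSO among the open nucleotides of 5.8S was at A155, at both doses. It is the nucleotide near the 3′ end that faces the 5′ end of 25S. Against no addition at 0.5 mM, A155 was not the largest. A155 is at position 455417 of chromosome XII. Its rate was 0.0719% without DMS, 0.717% for no addition, 0.875% for DMSO, 0.602% for 0.5 mM AglA and 0.450% for 1.0 mM AglA. With 10, 50 and 1000 µM CHX it was 0.560%, 0.619% and 0.584%. Both AglA rates were thus below both rates without drug, but the 0.5 mM rate lay within the range of the CHX libraries, and the 1.0 mM rate was the lowest of the 7.

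The log2 ratio of A155 to DMSO was -0.41 at 0.5 mM and -0.78 at 1.0 mM AglA, and that to no addition was -0.09 and -0.46. Against DMSO, 3 of the 514 nucleotides were as low or lower at 0.5 mM and 2 at 1.0 mM, A155 included. Against no addition 102 and 14 were. The size of the difference thus depends on the control, and DMSO gave the highest rate at A155 of all 8 libraries. When 0.01 in place of 0.001 was added to the fraction, the ratios to DMSO were -0.19 and -0.34. Before centring, A53, A54, A77, A109 and A155 were below both controls at both doses, 5 of 15 nucleotides, where the background was 42.4%. After centring A77 and A155 were, 2 of 15, where it was 18.5%.

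The other 14 open nucleotides differed from DMSO by at most 0.31 with AglA. Against DMSO at 0.5 mM, the lowest after A155 were C110 (-0.13) and A77 (-0.13), and the highest A53 (0.06), C84 (0.05) and C83 (0.05). At 1.0 mM the lowest after A155 were A109 (-0.31) and C110 (-0.28), and the highest C151 (0.23), A131 (0.17) and A71 (0.09). At 1.0 mM, 5 of the 514 were as low as A109, 7 as low as C110 and 18 as high as C151, each counted with itself. Over all 15 the median ratio to DMSO was -0.06 and 0.02 at the lower and higher dose, against -0.00065 and -0.0022 over the 514. The median ratio to no addition was 0.05 and 0.07, against 0.05 and 0.05. Against no addition the lowest were A77 (-0.16), A155 and C151 (-0.07) at 0.5 mM, and A155, A109 (-0.22) and A77 (-0.17) at 1.0 mM. The highest there were A80 (0.21), C110 (0.21) and A53 (0.12), and C151 (0.28), A131 (0.26) and A79 (0.21).

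C151 was highest in the 1.0 mM AglA library. It had 0.310% without DMS, 1.81% for no addition and 1.79% for DMSO. AglA at 0.5 and 1.0 mM gave 1.57% and 2.05%, and CHX at 10, 50 and 1000 µM gave 1.41%, 1.26% and 1.39%. The 2 AglA doses lay on opposite sides of the controls. C151 follows a guanosine, and 8 of the other 10 cytidines of 5.8S that follow one were also highest in the 1.0 mM AglA library, as were 72.1% of the 262 such cytidines of all rRNAs that were not open. Their median rate over all rRNAs was 0.152% with 1.0 mM AglA and 0.116% with DMSO. Of the cytidines not open that follow another base, 11 of 20 in 5.8S and 47.7% of 681 in all rRNAs were highest there too, with medians over all rRNAs of 0.0835% and 0.0698%. The part of this in the value at C151 was not tested.

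**Figure D4:**
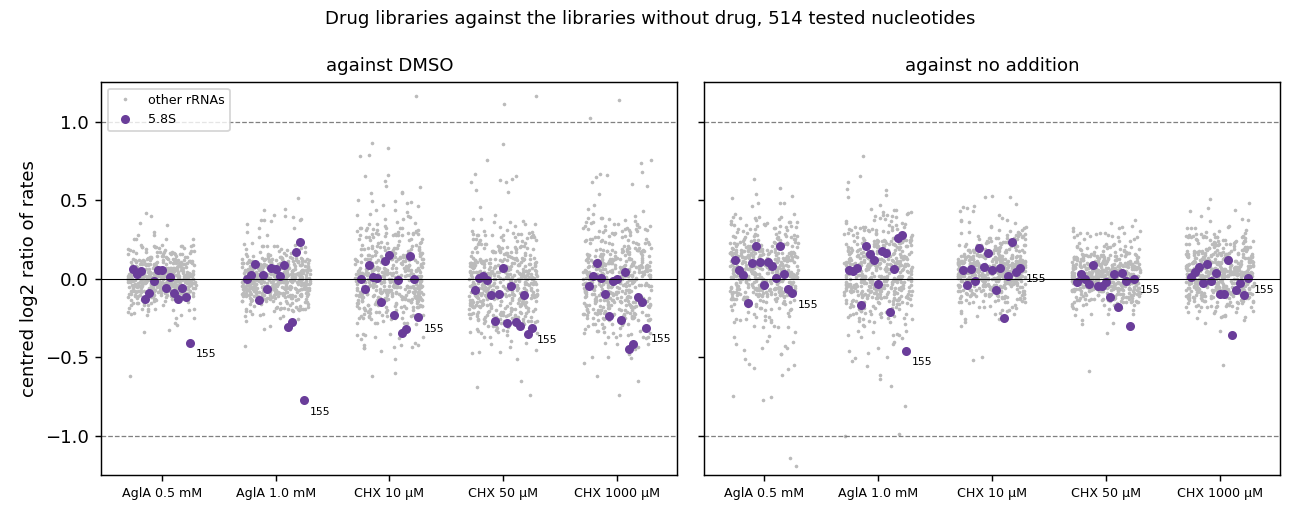
Log2 ratio of the rate in each drug library to the DMSO library (left) and the no-addition library (right), relative to each library's median, for the 15 open nucleotides of 5.8S (purple) and the other tested nucleotides (grey). Dashed lines mark 2-fold, and points of other rRNAs beyond 1.2 are not drawn. Nucleotide 155 is labelled and lies at -0.78 against DMSO with 1.0 mM AglA, and no point of 5.8S reaches a dashed line.

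With CHX every open nucleotide of 5.8S had a lower rate than in both controls before the libraries were centred, at all 3 doses. The background of nucleotides below both controls was 91.8%, 75.7% and 82.3% at 10, 50 and 1000 µM, so this was the rule in all rRNAs. The median log2 ratio of the 15 to DMSO without centring was -0.32, -0.23 and -0.29, against -0.31, -0.14 and -0.20 over the 514. After centring it was -0.01, -0.10 and -0.10, against 0.01, -0.02 and -0.0026. Against no addition the centred medians of the 15 were 0.06, -0.02 and -0.01, against 0.05, 0.02 and 0.03.

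A109 was the lowest of the 15 against no addition at 10 and 1000 µM CHX. A109 is at position 455463 of chromosome XII and is predicted to pair with U69. Its rate was 0.0490% without DMS, 1.90% for no addition and 1.95% for DMSO. CHX at 10, 50 and 1000 µM gave 1.19%, 1.45% and 1.21%, and AglA at 0.5 and 1.0 mM gave 1.74% and 1.5%. Before centring all 5 drug libraries were below both controls, and the 50 µM rate was above those at the lower and the higher CHX dose.

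The centred log2 ratios of A109 to no addition were -0.25, -0.18 and -0.36 at 10, 50 and 1000 µM, and to DMSO -0.35, -0.28 and -0.45. Against no addition, 8, 17 and 3 of the 514 nucleotides were as low or lower, A109 included. After centring A109 and C94 were below both controls at all 3 doses, 2 of 15 nucleotides, where the background was 8.56%. C94 had 0.0781% without DMS, 1.34% for no addition and 1.44% for DMSO, whereas the CHX doses gave 0.956%, 1.07% and 1.02%. With AglA it had 1.32% and 1.41%.

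C110, next to A109, was lower with CHX than with DMSO but near the no-addition library after centring. It had 0.0491% without DMS, 2.67% for no addition and 3.26% for DMSO. The 0.5 and 1.0 mM AglA libraries had 2.83% and 2.57%, and CHX at 10, 50 and 1000 µM gave 2.06%, 2.40% and 2.10%. Its log2 ratios to DMSO were -0.32, -0.30 and -0.41 at the 3 CHX doses, and to no addition 0.02, 0.04 and -0.07. The 2 controls differed at C110 by 0.34, more than the ratios to DMSO at 10 and 50 µM in size and less than that at 1000 µM.

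The other nucleotides at the ends of the range with CHX were as follows against DMSO. At 10 µM, A155 followed A109 and C110 (-0.25), and C84 (0.15), A131 (0.15) and C83 (0.11) were highest. At 50 µM, C151 (-0.35), A155 (-0.32) and C110 were lowest, and C84 (0.07), A71 (0.02) and A54 (0.01) highest. At 1000 µM, A155 again followed them (-0.31), and A71 (0.10), C99 (0.04) and A54 (0.02) were highest. Against no addition C94 (-0.07) and A54 (-0.04) followed A109 at 10 µM, C151 (-0.30) came before A109 and C94 (-0.12) at 50 µM, and C151 (-0.10) and C94 (-0.10) followed A109 at 1000 µM. The highest against no addition were A131 (0.24), A79 (0.19) and C83 (0.16) at 10 µM, A79 (0.08), C110 and A54 (0.03) at 50 µM, and C99 (0.12), A79 (0.09) and A71 (0.07) at 1000 µM.

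At the same molar dose, 1.0 mM AglA and 1000 µM CHX differed at the 15 open nucleotides by at most 0.46 on the log2 scale. The ratio of AglA to CHX was lowest at A155 (-0.46), A77 (-0.14) and A71 (-0.0042), and highest at C151 (0.38), A131 (0.29) and C94 (0.28). Over the 15 the median was 0.08 and the standard deviation 0.20, against 0.01 and 0.39 over the 514. Of the 514, 27 nucleotides differed by as much as A155 in either direction.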

How the data were processed

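The authors deposited 1 table of mutation rates per rRNA nucleotide, a fraction per library in which rows are positions, printed here as percentages. Per the labels' protocols, rRNA of DMS-treated ribosomes was fragmented and size-selected, ligated to a linker, copied with TGIRT-III, and full-length cDNA was circularised and amplified by PCR. Per the submitters' processing notes, cutadapt, Bowtie2 and sacCer3 were used. Not given in the sources used here are their settings, the read depth and whether PCR copies were removed.

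Libraries were grouped by title. A and C were classed by their mean over the 7 DMS libraries. Log2 ratios used the rate plus 0.001 as a fraction, centred on each library's median over the 514 A and C of at least 0.5%, so low rates show smaller ratios. With 1 library per condition no test was made. Folding used ViennaRNA 2.7.2 (minimum energy, default settings), and other steps Python 3.11.15 (pandas 2.3.3, numpy 2.4.6, matplotlib 3.10.9). The ratio step was tested on simulated data. Gene positions came from RefSeq's R64 annotation, and the minus strand from the locus tag.

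The nucleotides named are every open one, the 3 highest and 3 lowest in each comparison, and U73. The nucleotides, bounds and rules were chosen with earlier results of these data known, and the intermediate and closed nucleotides, C57, C115, C141, C154 and U156 were named after their values were seen. Alternatives were other bounds, added constants of 0.0001 and 0.01, fold rules, control libraries, subtraction of the rate without DMS, no centring, and other folds.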

Additional observations from a re-analysis of the deposited data

Results flagged for a closer look

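A guanosine and a uridine of 5.8S, outside the A and C used above, were higher with DMS than without it in all 7 DMS libraries by at least 2-fold after 0.1 percentage points were added. G116 had 0.143% without DMS and 0.630% to 0.871% with it, a lowest log2 ratio of 1.59. U81 had 0.0407% without DMS and 0.186% to 0.257% with it, a lowest log2 ratio of 1.02. These were 2 of the 81 G and U of 5.8S (2.47%), against 4.79% of the 2946 G and U of all rRNAs. G116 is predicted to pair with C137 and U81 with A97. No condition had more than 1 library, so none could be searched for outlying libraries.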

How the results depend on the processing

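The count of 15 open nucleotides was 23 with a bound of 0.25% and 4 with 2%. It was 11 with 1%, 16 over the 2 libraries without drug, and 14 after subtraction of the rate without DMS, and it was 15 whichever DMS library was left out. The count of 28 A and C at least 2-fold higher with DMS became 39 at an added constant of 0.0001 and 10 at one of 0.01. It was 16 under a 4-fold rule, and 28 with DMSO in place of no addition. The count of 0 nucleotides at 0.5% or more without DMS was 4 at 0.25% (2.53% of 158, against 1.90% of 5475). In the drug libraries and the DMSO library 0 nucleotides of 5.8S passed under each alternative run (constants, filters, no centring, subtraction, the 1.5-fold rule, and for the drugs each control alone). The number of open nucleotides predicted unpaired was 7 or 8 in all folds. No paired analysis was possible because each condition has 1 library. Unknown depth limits low rates most, and those near the ends of 5.8S, A155 among them, may rest on few reads, which was not tested.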

Other observations

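On the 25S side of the predicted pairing with 5.8S, 3 of 23 A and C were open (13.0%), against 52 of 296 (17.6%) in nucleotides 1 to 650 of 25S. Both sets included A6 and C7 near the 5′ end of 25S, with means of 0.0058% and 0.0041%. Such values do not tell a closed base from one that was little read. The open ones were A378 with a mean of 2.86% over the 7 DMS libraries, A377 with 0.769% and A386 with 0.655%. In the fold with nucleotides 1 to 650 of 25S they were predicted to pair with U26, U27 and U23 of 5.8S. With the whole 25S, U26 and U23 were predicted to pair with A3372 and A3375 instead, and U27 was unpaired. A378 had 0.0351% without DMS, 3.07% for no addition and 3.26% for DMSO. AglA at 0.5 and 1.0 mM gave 2.93% and 2.94% there, and CHX at 10, 50 and 1000 µM gave 2.45%, 2.82% and 2.59%.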
